A study of Equus caballus with 31 samples.

Results

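Gene expression in cells of the joint (synovial) fluid was compared between horses with osteoarthritis (OA) and healthy horses, using 16 of the 31 libraries of the study: 5 from OA fluid and 11 from healthy fluid. The groups were taken from the disease and tissue given in the sample labels, each library is a different horse by its number, and the horses are named as in the labels, OA_ for disease and ORC_ for healthy, followed by a number. All 16 are labelled wild type and mixed mononuclear cells, and none is labelled as treated. Disease status rested on a lameness examination, joint imaging and the response to joint analgesia, and horses with recent medication or joint injections were left out. The fluid was treated with hyaluronidase before the cells were spun down, and poly(A) RNA of the frozen pellets was sequenced. No batch, age or sex is stated for them. The 15 blood libraries were not analysed here.

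Joint fluid is a filtrate of plasma to which the lining of the joint adds hyaluronan, and it carries a sparse population of macrophages, lymphocytes and shed lining cells. Osteoarthritis is a disease of the whole joint in which cartilage is lost and the synovial lining becomes thickened and mildly inflamed. Cells under nutrient, oxygen or folding stress adjust translation, amino acid supply and secretory capacity through conserved pathways, and lymphocytes depend on cytokine receptor kinases, phosphoinositide enzymes and small GTPases. Roles given below for single genes are known mainly from human and mouse cells.

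Values are read counts that the authors scaled by the median-ratio method, called normalized reads below. The difference of OA from healthy fluid is given on the log2(value + 1) scale (log2 change) and was tested with limma, two-sided, with p-values adjusted by the Benjamini-Hochberg method over all genes tested. Genes past an adjusted p of 0.05 are called higher or lower, and a signed number in brackets after a gene symbol is its log2 change. Each fit had n = 5 OA and n = 11 healthy libraries unless stated, and values for OA libraries are listed in the order OA_1038, OA_2615, OA_3850, OA_9350 and OA_9570.

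Sequencing depth averaged 29.6 ± 3.51 M reads per OA library (SD, n = 5) and 31.7 ± 3.27 M per healthy library (SD, n = 11; two-sided exact permutation p = 0.2495). Normalized totals were higher in OA, 33.8 ± 2.36 M (SD, n = 5) against 29.3 ± 1.92 M (SD, n = 11; exact permutation p = 0.00206), so scaling to equal totals shifts genes downward in OA.

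The cells were a mixture whose make-up differed between libraries. The mean log2 level of 15 T cell markers was 9.04 to 11.1 in OA and 11.2 to 12.9 in healthy fluid, with no overlap, and 14 of the 15 were lower in OA, with or without OA_9570 and ORC_202. The mean of 18 synovial fibroblast markers was 5.16 in OA_9570, between 10.5 and 12.3 in the remaining OA fluids and 4.63 to 10.3 in the healthy ones, with 4 of 18 called higher. That count rests on single libraries: it was 0 without OA_2615, OA_3850 or OA_9350, 1 without OA_1038, 2 without ORC_192, ORC_196, ORC_200 or ORC_209, 9 without ORC_205, 14 without ORC_188 and 15 without OA_9570, 15 without both OA_9570 and ORC_202, 11 with edgeR and 13 with DESeq2. Fluids labelled as mononuclear cells thus also held RNA of fibroblast markers, in widely differing amounts. Macrophage marker means spanned 11.1 to 14.6 in OA and 9.24 to 14.2 in healthy fluid, overlapping widely, with 1 of 10 called higher (2 without OA_9570 and ORC_202). Of 5 neutrophil markers limma and edgeR called 0 and DESeq2 1 higher (1 at an unadjusted p below 0.05), and of 11 dendritic cell markers all called 0 (2 lower at an unadjusted p below 0.05). In RNA from mixed cells, fewer cells of a type and less RNA per cell cannot be told apart, and the part that cell make-up has in the gene differences below was not tested.

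The libraries OA_9570 and ORC_202 stood apart from their groups. When OA_9570 was left out and the genes were called from the other 15 libraries, it lay on the OA side of the midpoint between the group means for 33.7% of the genes called higher and 51.2% of those called lower. ORC_202, left out in the same way, lay on the healthy side for 52.3% and 44% of the genes. For the other OA libraries the share over both directions ran from 66% (OA_1038) to 88.4% (OA_3850), and for the other healthy libraries from 64.4% (ORC_205) to 98.1% (ORC_201). Results are therefore given with all 16 libraries and, beside most counts of genes, without this pair.

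Many genes differed. Of 13885 genes tested, out of 17538 in the table, 2006 were higher (14.4%) and 1893 lower (13.6%) in OA, together 28.1%. Of these, 1206 rose and 973 fell at least 2-fold, and 431 and 122 at least 8-fold. These counts include genes that passed the filter on low values through either group alone. Of 418 genes with a healthy mean below 10 normalized reads 180 were called, and of 322 with an OA mean below 10, 67. The balance of large rises and falls was not counted without them. Only 218 genes (1.57%) had every OA value above every healthy value, and 277 (1.99%) every OA value below. The median log2 change of all genes was 0.08. Counts of each list and family below are to be read against the 14.4% higher and 13.6% lower of all genes. Among 499 genes with a mean of at least 10000 normalized reads, 21% rose and 15% fell, against 10.9% and 5.25% of 2627 genes with a mean of 10 to 100. A difference of more than 2-fold either way lay outside the 95% interval for 5148 genes (37.1%).

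Without OA_9570 and ORC_202, 2791 genes were higher and 2328 lower. Scaling to equal library totals gave 1312 higher and 2764 lower, so 32.2% of calls were rises against 51.5% with the authors' scaling, and it moved the median of all genes to -0.12. Without OA_2615 the count of higher genes was 1209, and without OA_3850 it was 1292. With the mean of the fibroblast list as covariate 530 genes were higher and 759 lower. When the mean of the T cell list entered as covariate, limma called 0 genes in either direction (1638 had an unadjusted p below 0.05). Because that mean did not overlap between the groups, T cell level and disease cannot be told apart in these libraries, and this holds for every result below.

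**Figure D1:**
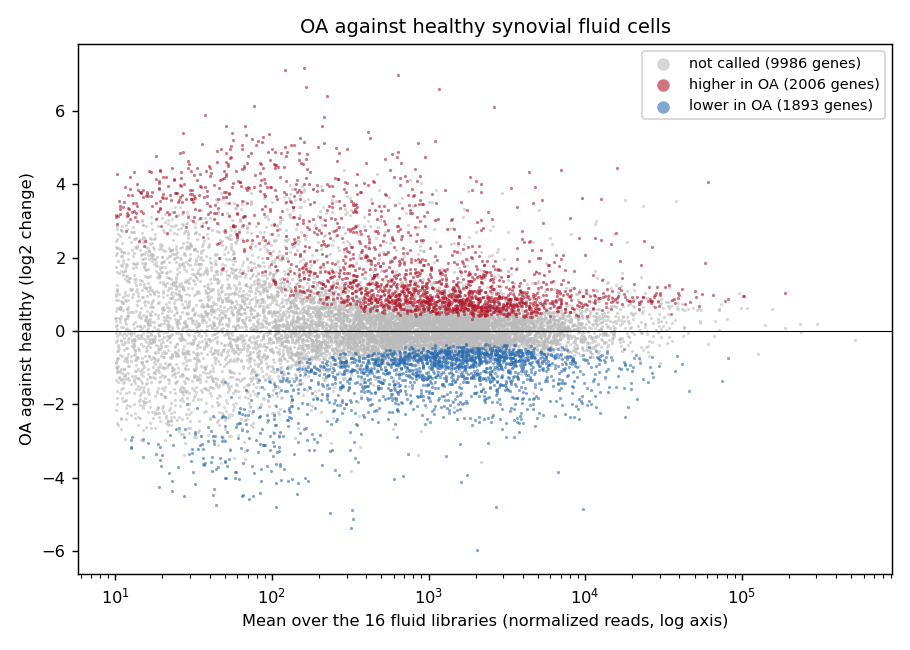
Each point is 1 of 13885 genes, with its mean over the 16 fluid libraries (normalized reads, log axis) against its log2 change in OA. Red points are the 2006 genes higher and blue points the 1893 genes lower in OA, and rises of over 8-fold outnumber falls of that size. Genes that passed the filter on low values through either group alone are included.

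**Figure D2:**
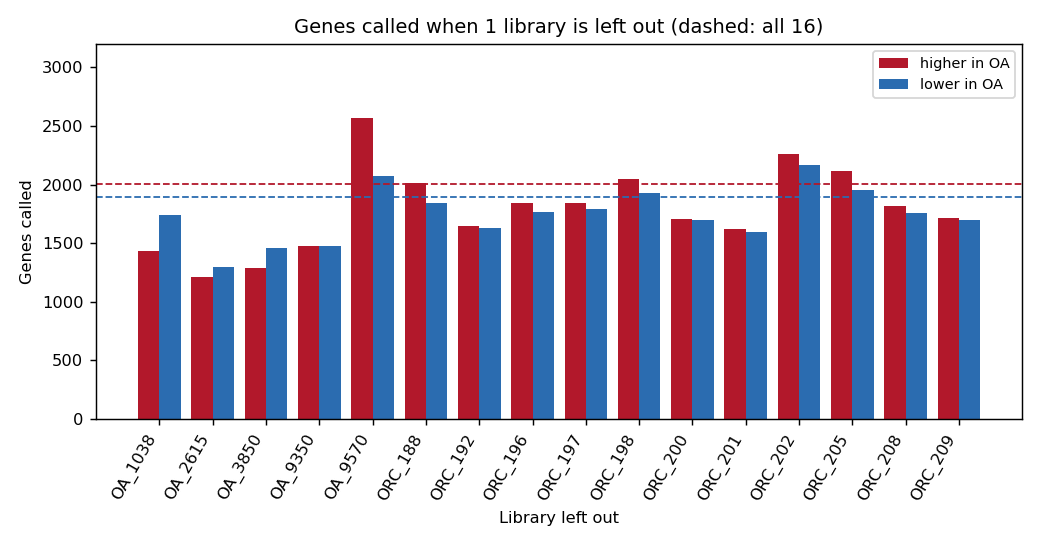
Bars give the number of genes called higher (red) and lower (blue) after 1 library was left out, and dashed lines the counts with all 16. The counts were smallest without OA_2615 (1209 and 1296). Without OA_9570 2569 genes were higher, and without ORC_202 2166 were lower.

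The genes with the widest gap between the groups were taken from those called, without overlap and averaging 100 or more in the group with more reads, outside the cell type, interferon and glycolysis lists. This choice fixes their lack of overlap. Among the rises, the 15 with the widest gap included a secretory pathway gene, enzymes, receptors and transcription factors.

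SEC16B, which organizes the sites where cargo leaves the endoplasmic reticulum, lies at chromosome 5, 12977644 to 13020393 of the horse build EquCab3.0. It read 240.2, 79.2, 130.2, 96.3 and 32.3 in OA fluids and 0 to 17.2 with a median of 0 in healthy fluids. Its healthy mean was below 10 normalized reads, so it entered the test through OA alone, which required a higher OA mean. Only its values are given. OA_9570 had the lowest OA value, still above every healthy library. ME1, the cytosolic malic enzyme that makes NADPH (chromosome 10, 37839447 to 38052334), read 3554, 2414, 2712, 1478 and 1151 against 47.5 to 455 with a median of 236 (log2 change 3.45, SE 0.46, adjusted p = 0.0005). The lowest OA value, in OA_9570, was well above the highest healthy one. DOK6, an adaptor of receptor tyrosine kinases (chromosome 8, 88351577 to 88775562), read 425, 119, 189.6, 131 and 86.1 against 0 to 27.6 with a median of 8.34, and it too entered the test through OA alone. ANGPTL4, a secreted inhibitor of lipoprotein lipase (chromosome 7, 6062344 to 6067384), read 508, 2461, 1765, 1513 and 888 against 18.5 to 287 with a median of 97.2 (log2 change 3.73, SE 0.53, adjusted p = 0.000528). Here OA_1038 was lowest and OA_2615 highest of the OA fluids.

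SH3PXD2B, a scaffold of podosomes (chromosome 14, 8184041 to 8288972), read 2206, 957, 1593, 892 and 469 against 16.2 to 275 with a median of 47.6 (log2 change 4.04, SE 0.63, adjusted p = 0.000752). IL1R1, the signalling receptor for interleukin-1 (chromosome 15, 7683172 to 7758565), read 737, 974, 968, 1067 and 794 against 91.1 to 454 with a median of 321 (log2 change 1.78, SE 0.35, adjusted p = 0.00232). The OA values of IL1R1 were close to each other while the healthy values spread more widely. PAPSS1, which makes the sulfate donor used to sulfate glycosaminoglycans (chromosome 2, 118108861 to 118197030), read 7624, 3885, 4158, 3681 and 3751 against 1124 to 2410.3 with a median of 1426 (log2 change 1.53, SE 0.20, adjusted p = 0.0005). NQO2, a quinone reductase (chromosome 20, 3731252 to 3746083), read 987, 956, 1113, 957 and 951 against 139 to 575 with a median of 444 (log2 change 1.42, adjusted p = 0.0023). THBD, the thrombin receptor thrombomodulin, read 558, 642, 8729, 785 and 677 against 0 to 277 with a median of 137, so OA_3850 stood far above the other OA fluids. Its call (log2 change 3.71, adjusted p = 0.015) was lost without OA_3850 (adjusted p = 0.0537). The remaining rises of this group were ECE2 (2.40), the transcription factors GLIS3 (3.67) and ZNF462 (3.11), LRRC27 (2.89), the endosomal WASH subunit WASHC3 (1.53) and FNDC3B (1.91).

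Among the falls, the 15 genes with the widest gap held several lymphocyte genes beside genes of broader use. ZBTB32, a transcriptional repressor of activated lymphocytes (chromosome 10, 7037949 to 7042147), read 101, 32.7, 75.2, 17.3 and 61.6 in OA and 169.8 to 814 with a median of 438 in healthy fluid (log2 change -3.03, SE 0.44, adjusted p = 0.000565). CHP2, a calcium-binding cofactor of sodium-proton exchangers (chromosome 13, 24808659 to 24822659), read 142, 85.4, 62.5, 76.6 and 151 against 296 to 1814 with a median of 868 (log2 change -2.88, SE 0.43, adjusted p = 0.000565). OA_9350 was the lowest fluid for ZBTB32 and OA_3850 for CHP2. RINL, an activator of RAB GTPases (chromosome 10, 9971068 to 9976921), read 240.2, 86.7, 246, 207.5 and 334 against 564 to 2155 with a median of 1151 (log2 change -2.53, SE 0.33, adjusted p = 0.0005). SLAMF1, a surface receptor of lymphocytes, read 156, 31.4, 122, 128 and 153 against 246 to 881 with a median of 782 (log2 change -2.49, adjusted p = 0.000703), and LAX1, an adaptor that limits antigen receptor signalling, read 154, 7.54, 108, 122 and 124 against 229 to 766 with a median of 421 (log2 change -2.55, adjusted p = 0.00277). OA_2615, the library with the lowest T cell list mean (9.04), was lowest for both.

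CNOT6L, a deadenylase that shortens mRNA tails (chromosome 3, 60271967 to 60435581), read 1016, 669.7, 995, 505 and 1304 against 1906 to 3324 with a median of 2563 (log2 change -1.51, SE 0.21, adjusted p = 0.0005). ARNTL, which encodes the clock factor BMAL1 (chromosome 7, 84304636 to 84341390), read 1160.5, 317, 872, 911 and 1233 against 1765 to 3069 with a median of 1992 (log2 change -1.38, SE 0.25, adjusted p = 0.00144). SUV39H1, a histone methyltransferase of heterochromatin (chromosome X, 40664968 to 40677212), read 330.2, 173, 278, 309 and 302 against 462 to 905 with a median of 598 (log2 change -1.14, SE 0.20, adjusted p = 0.00116). For ARNTL and SUV39H1, OA_2615 again lay well below the other OA fluids, which were themselves below every healthy one. The lysophosphatidic acid receptors LPAR5 and LPAR2 changed by -2.22 and -1.96, TAGAP, a gene of T cell activation, by -1.67, the kinase STK26 by -1.55, the transcription factor SP4 by -1.30, TCTE1 by -2.29 and IMPG2 by -2.01.

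**Figure D3:**
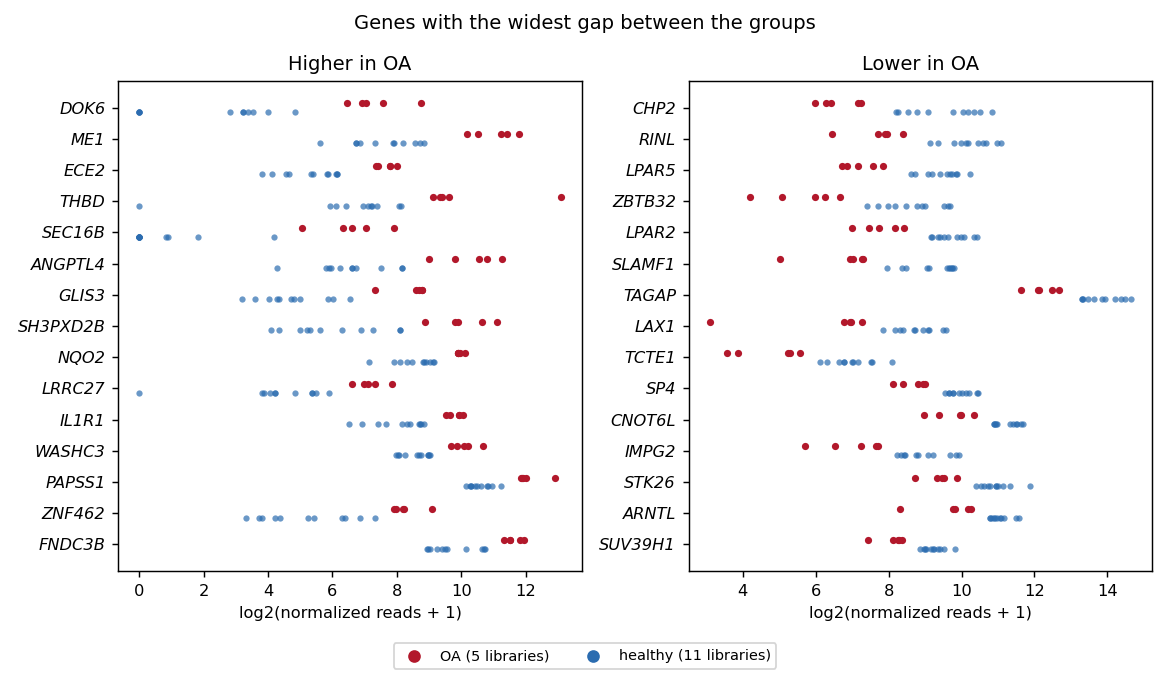
Values of the 30 genes with the widest gap, on the log2(normalized reads + 1) scale, with 1 point per library (red OA, blue healthy). In each row the red and blue points do not overlap. THBD has 1 OA library far above the others and LAX1 1 far below.

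Many genes of vesicle transport between the endoplasmic reticulum and the Golgi rose. Of 29 genes of the COPI and COPII coats and their cargo receptors, 15 were higher, against 14.4% of all genes, and 0 lower. The count lower was also 0 at an unadjusted p below 0.05, and by edgeR and DESeq2. The same holds for every list or family count of 0 below, unless stated, in the fit of all 16 libraries without covariate or rescaling. The median log2 change of the 29 genes was 0.55. The mean of the list was 11.3 to 11.9 in OA and 10.7 to 11.2 in healthy fluid, with no overlap. ARF4, a GTPase of Golgi transport (chromosome 16, 32277580 to 32295598), read 6230.2, 5406, 5662, 6315 and 3963 against 2364 to 3830.1 with a median of 3152 (log2 change 0.81, SE 0.15, adjusted p = 0.0019), and only OA_9570 came near the healthy maximum. The COPII coat genes SEC24D, SEC31A and SEC23B changed by 0.88, 0.69 and 0.65 (adjusted p = 0.00181, 0.00332 and 0.00622). The coat gene COPE (0.80), the retrieval receptor KDELR3 (3.24) and the GTPases SAR1A (0.73) and SAR1B (0.77), which start COPII budding, were also called. The COPI coat gene COPA (0.26) was not. Leaving out OA_9570 and ORC_202 gave 15 higher and 0 lower, equal library totals 9 and 1, and the fibroblast covariate 9 and 0.

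In the neighbouring list of the unfolded protein response and protein folding in the endoplasmic reticulum, 8 of 29 genes were higher and 2 lower (median 0.29). CRELD2, a secreted factor induced by endoplasmic reticulum stress, read 1976, 1691, 2947, 3938 and 2030.2 against 610 to 1716 with a median of 967 (log2 change 1.24, adjusted p = 0.00148), with OA_2615 inside the healthy range. The membrane-bound stress factor CREB3L2 (1.44), the disulfide isomerase PDIA5 (1.23) and the chaperone HYOU1 (0.92) rose as well. The counts were 8 higher and 2 lower without OA_9570 and ORC_202, 6 and 4 at equal library totals, and 4 and 0 with the fibroblast covariate.

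Some trafficking genes beyond the Golgi rose too. Among symbol families, that is, genes sharing the letters before the first digit of the symbol, sorting nexins (SNX) had 10 of 29 higher and 1 lower, and the AP family, which mixes adaptor protein subunits with a few unrelated genes, 10 of 27 and 1. AP2A2, a subunit of the clathrin adaptor of the plasma membrane (chromosome 12, 35877683 to 35965572), read 4542, 5913, 6466, 6432 and 6703 against 1962 to 4186 with a median of 2683 (log2 change 1.10, SE 0.17, adjusted p = 0.000752), without overlap, and AP2B1 changed by 0.95. SNX9, which shapes endocytic membranes, read 7923, 7570, 7217, 6619 and 2811 against 1508 to 4377 with a median of 2311 (log2 change 1.30, adjusted p = 0.00446), with OA_9570 within the healthy range. The SNX count was 4 without OA_2615 and 6 without OA_1038 or OA_3850, and the AP count 5 without OA_2615 and 6 without OA_9350. SNX had 9 higher and 1 lower and AP 9 higher and 1 lower without OA_9570 and ORC_202. With equal library totals SNX had 5 higher and 2 lower and AP 5 higher and 2 lower. With the fibroblast covariate SNX had 1 higher and 1 lower and AP 3 higher and 0 lower.

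Of 48 RAB GTPases, which mark membrane compartments, 10 were higher and 4 lower (median 0.24). These shares were 20.8% and 8.33%, against 14.4% and 13.6% of all genes. RAB31 read 8969, 8512, 8387, 5482 and 6098 against 2059.8 to 5389 with a median of 3685 (log2 change 1.04, adjusted p = 0.00347) and RAB34 2979, 1803, 1794, 1321 and 1612 against 106 to 1119.8 with a median of 530.1 (log2 change 1.75, adjusted p = 0.00767), both without overlap and with OA_9350 lowest. RAB37, a secretory RAB of blood cells, fell, from 320.5 to 2126 with a median of 1266 in healthy to 404, 81.7, 175, 329.7 and 254 in OA fluid (-2.28, adjusted p = 0.00162), with OA_1038 and OA_9350 just inside the healthy range. The higher count was 5 without OA_2615, the lower count 2 without OA_2615 or OA_9350. Without OA_9570 and ORC_202 these became 14 higher and 5 lower, at equal library totals 4 and 6, and with the fibroblast covariate 3 and 1.

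The vacuolar ATPase acidifies lysosomes and endosomes. Of its 18 genes tested, 8 were higher and 0 lower (median 0.60). ATP6V0D1 read 4775, 7095, 7120.3, 8536 and 8324 against 2206 to 5565 with a median of 3668 (log2 change 0.99, adjusted p = 0.00279), and only OA_1038 lay within the healthy range. The count was 4 without OA_2615 or ORC_201, 5 without OA_3850 or OA_9350 and 13 without OA_1038. At equal library totals 3 were higher and 0 lower, with the fibroblast covariate 1 and 0, and without OA_9570 and ORC_202 7 and 0.

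Genes of mitochondrial carbon metabolism also rose. Of 35 genes of the tricarboxylic acid (TCA) cycle and the malate shuttle, 19 were higher and 1 was lower (median 0.50). However, 1 of the 35 entered the test through OA alone. Among the other 34, 18 were higher and 1 lower. Means of the list did not overlap, at 10.9 to 11.2 in OA and 10.2 to 10.7 in healthy fluid. MDH1, the cytosolic malate dehydrogenase (chromosome 15, 38952929 to 38971981), read 5849.6, 4392, 3416, 4559 and 2732 against 1822 to 3249 with a median of 2148 (log2 change 0.92, SE 0.17, adjusted p = 0.00192), with OA_9570 inside the healthy range. PC, pyruvate carboxylase, which refills the cycle (chromosome 12, 30478925 to 30568280), read 729, 294, 891, 710.1 and 723 against 70 to 508 with a median of 189.9 (log2 change 1.71, SE 0.39, adjusted p = 0.00509), with OA_2615 within the healthy range. PDK4, a kinase that shuts pyruvate dehydrogenase (chromosome 4, 39015781 to 39027160), read 99.8, 31.4, 72, 53.1 and 14.7 against 0 to 10.9 with a median of 0. The OA values did not overlap the healthy ones, but the healthy mean was below 10 normalized reads. PDK4 thus entered the test through OA alone, which required a higher OA mean. The cycle enzymes OGDH (0.62) and SUCLG1 (0.60) rose, and the mitochondrial malic enzyme ME3 was the gene that fell (-1.09). The higher count was 12 without OA_2615 or OA_3850. With both OA_9570 and ORC_202 left out 16 were higher and 1 lower, with equal library totals 7 and 2, and under the fibroblast covariate 7 and 0.

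Serine and one-carbon metabolism supplies folate-bound carbon for nucleotides and methylation. Here 7 of 17 genes were higher and 0 lower (median 0.41), and the list mean was 10.2 to 10.4 in OA and 9.33 to 10.2 in healthy fluid. The folate enzyme ALDH1L2 of mitochondria (chromosome 28, 29343425 to 29396773) read 480.5, 560.4, 1224, 391 and 444 against 25 to 284 with a median of 103 (log2 change 2.53, SE 0.51, adjusted p = 0.00279), without overlap. Its cytosolic relative ALDH1L1 (chromosome 16, 120478 to 181170) read 11332, 12535, 9422, 12150 and 14230 against 966 to 9586 with a median of 3586 (log2 change 1.89, SE 0.38, adjusted p = 0.00279). Only OA_3850 lay within the healthy range of ALDH1L1, just under its highest value. MTHFD1L read 1185, 2999, 2349, 2649 and 2216 against 725 to 1735 with a median of 956 (log2 change 1.11, adjusted p = 0.00221), with OA_1038 inside the healthy range, and AHCY, which clears S-adenosylhomocysteine, changed by 1.09. The serine synthesis genes PHGDH (0.20) and PSAT1 (0.04) and the serine hydroxymethyltransferase SHMT1 (-0.12) were not called. The fibroblast covariate left 6 higher and 0 lower, equal library totals 5 and 0, and the fit without OA_9570 and ORC_202 7 and 0.

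Genes of protein import into mitochondria and of the mitochondrial carriers were split: 15 of 58 were higher and 5 lower (median 0.42). TOMM22, a receptor of the outer membrane import pore (chromosome 28, 36826337 to 36827697), read 3867, 2117, 2004, 2318 and 2255 against 784 to 1660.3 with a median of 1053 (log2 change 1.13, SE 0.19, adjusted p = 0.000949), without overlap. The matrix chaperonins HSPD1 and HSPE1 changed by 1.0 and 1.17 and the aspartate-glutamate carrier SLC25A13 by 1.30, while the other aspartate-glutamate carrier, SLC25A12, was lower (-0.73), a call lost without OA_3850 (adjusted p = 0.0514). The lower count was 3 without OA_3850. Leaving out OA_9570 and ORC_202 gave 19 higher and 6 lower, equal library totals 10 and 6, and the fibroblast covariate 12 and 1. Mitochondrial ribosomal proteins were higher in 15 of 43 genes of the MRPL family and 11 of 28 of the MRPS family, and 0 lower in both (1 and 2 at an unadjusted p below 0.05, and 0 by edgeR and DESeq2; the same families had 10 higher and 1 lower and 6 higher and 2 lower at equal library totals). The MRPS count was 6 without OA_1038 and 7 without OA_2615 or OA_9350. MRPL had 16 higher and 0 lower and MRPS 11 higher and 0 lower without OA_9570 and ORC_202. With the fibroblast covariate each of these families had 7 higher and 0 lower.

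Genes of the integrated stress response, which slows general translation and raises amino acid supply, had 5 of 18 called higher and 0 lower (median 0.93). The list mean was 9.42 to 10.2 in OA and 8.24 to 9.29 in healthy fluid, with no overlap. ATF5, a transcription factor induced by this response (chromosome 10, 19929830 to 19932332), read 1790.1, 508, 607, 834 and 468 against 138 to 407 with a median of 286 (log2 change 1.52, SE 0.31, adjusted p = 0.0029), without overlap and with OA_1038 highest. JDP2 changed by 1.60 and NUPR1 by 2.52. VLDLR (2.67) lost its call without OA_1038, OA_2615, OA_3850, OA_9350, ORC_196 or ORC_201 (adjusted p up to 0.0985). ATF3 (1.80, adjusted p = 0.0331) lost its call without OA_2615, OA_3850, OA_9350 or ORC_200 (adjusted p up to 0.0985), and with edgeR. ATF4, the central factor of the response, was at -0.05 and DDIT3 at 0.19, neither called. The count was 3 without OA_2615 or OA_3850. The counts were 6 higher and 0 lower without OA_9570 and ORC_202, 4 and 0 at equal library totals, and 2 and 0 with the fibroblast covariate.

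Aminoacyl-tRNA synthetases, which charge tRNAs for translation, had 10 of 20 cytosolic genes higher and 1 lower (median 0.40). The gene that fell was WARS1 (chromosome 24, 42687389 to 42717279), the tryptophan enzyme, which interferon induces. It read 9071, 3446, 5939.6, 5494 and 7112 against 9710.5 to 26002 with a median of 19055 (log2 change -1.52, SE 0.26, adjusted p = 0.00114), with every OA value below every healthy one. LARS1, VARS1 and FARSB rose by 0.73, 0.74 and 0.67 (adjusted p = 0.00739, 0.00765 and 0.00819). The count of genes higher was 6 without OA_1038, OA_3850, ORC_197 or ORC_201. Without OA_9570 and ORC_202 these became 11 higher and 1 lower, at equal library totals 3 and 1, and with the fibroblast covariate 4 and 1.

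**Figure D4:**
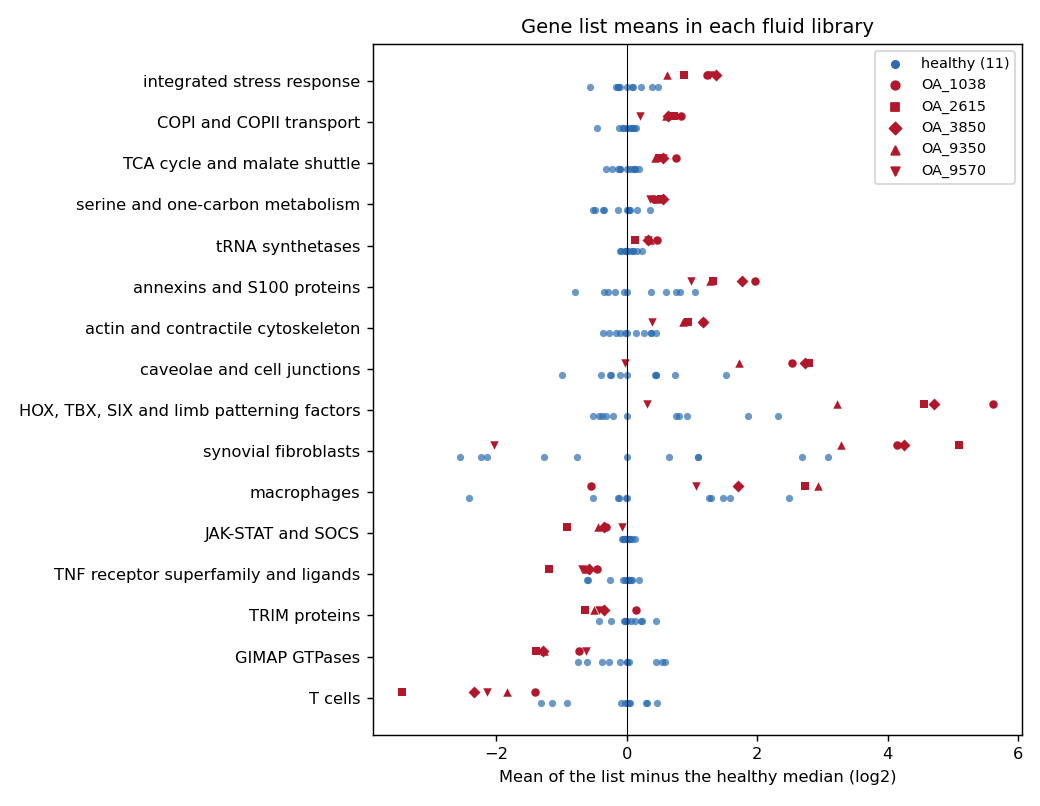
Mean log2 level of each gene list in every library, minus the healthy median of that list (blue healthy, red OA with 1 symbol per horse). The stress response, COPI and COPII and TCA lists and the T cell list show no overlap, and OA_9570 lies inside the healthy range for junction, HOX and fibroblast lists.

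Structural genes of adherent cells were higher mainly in 4 of the 5 OA fluids. Of 27 genes of caveolae and cell junctions, 14 were higher and 2 lower (median 2.10). Of the 27, 2 entered the test through OA alone and 1 through healthy fluid alone, which fixed the direction of their difference in means. Among the other 24, 13 were higher and 1 lower. Means of the list were 9.26, 9.51, 9.45, 8.45 and 6.7 in OA, with OA_9570 close to the healthy median of 6.72. EHD2, which stabilizes caveolae (chromosome 10, 17958492 to 17974322), read 17690, 5261, 5783, 2089 and 229.9 against 33.8 to 951 with a median of 237 (log2 change 4.0, SE 0.92, adjusted p = 0.00622), with OA_9570 below the healthy median. JAM2, a junctional adhesion molecule (chromosome 26, 24034971 to 24096556), was not low in OA_9570, at 602, 607, 1963, 1282 and 1336 against 44.3 to 548 with a median of 238 (log2 change 2.15, SE 0.46, adjusted p = 0.00391), and had no overlap. CAV2 (2.10), the adherens junction gene CTNNB1 (0.74) and the gap junction gene GJA1 (3.43) were called higher. The genes lower were N-cadherin (CDH2, -3.47), which entered the test through healthy fluid alone and lost its call without OA_1038, OA_9350 or OA_9570 (adjusted p up to 0.0789) and with edgeR (adjusted p = 0.101), and the pannexin PANX1 (-1.26), lost without OA_1038, OA_2615 or OA_9350 (adjusted p up to 0.0759). The number higher became 9 without OA_2615 or OA_9350. At equal library totals 12 were higher and 2 lower, with the fibroblast covariate 3 and 0, and without OA_9570 and ORC_202 20 and 2. Among OA fluids the fibroblast list mean, like that of the junction list, was lowest in OA_9570 (5.16), unlike JAM2. Its part in these genes was not tested.

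Homeobox and other patterning factors, which keep the positional identity of limb mesenchyme in adult cells, were low or undetected in most healthy fluids. Of 60 genes in the list 39 were tested and 21 were higher and 0 lower. However, 19 of the 39 had a healthy mean below 10 normalized reads. They entered the test through OA alone, which required a higher OA mean. Among the other 20, 9 were higher and 0 lower. SIX2 (chromosome 15, 54766548 to 54769748) read 1924, 857, 472, 156 and 36.2 in OA and 0 to 50 with a median of 0 in healthy fluid, highest in OA_1038 and lowest in OA_9570, which lay within the healthy range. HOXD10 read 216, 137, 24.4, 34.6 and 0 in OA and 0 in all healthy fluids except 1 at 0.863. SIX4 read 49.3, 25.1, 55.1, 34.6 and 0 in OA and 0 in every healthy fluid, so no fold is given. SNAI1, a factor of mesenchymal cells, read 375, 226, 964, 758 and 566 against 16.9 to 493 with a median of 86.3 (log2 change 2.75, adjusted p = 0.00376), with OA_1038 and OA_2615 inside the healthy range. OA_9570 had 0 for HOXD10 and SIX4, but a SNAI1 value above every healthy one, and its list mean was 2.08, against 4.99 to 7.38 in the other OA and 1.24 to 4.09 in healthy fluids. With both OA_9570 and ORC_202 left out 28 were higher and 0 lower, with equal library totals 20 and 0, and under the fibroblast covariate 4 and 0.

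Of 42 actin and contractile genes, 2 entered the test through OA alone, which required a higher OA mean. Among the other 40, 12 were higher and 1 lower. All 42 had 13 higher and 1 lower (median 0.47). Tropomyosins, which wrap actin filaments, led them: TPM4 (chromosome 21, 2027358 to 2066613) read 26393, 16918, 25386, 20332 and 20587 against 5993 to 16306 with a median of 8416 (log2 change 1.38, SE 0.22, adjusted p = 0.000752), without overlap. TPM2 and TPM1 changed by 3.49 and 0.97, and PDLIM5, which tethers signalling proteins to actin, by 0.96. The general actin gene ACTB was at -0.03 and not called. PXN, a focal adhesion adaptor, was the gene lower (-0.53), and its call was lost without each library in turn other than OA_9570 (adjusted p up to 0.154) and with edgeR (adjusted p = 0.0634). The number of genes higher was 7 without OA_3850 and 8 without OA_1038. The fibroblast covariate left 2 higher and 0 lower, equal library totals 10 and 2, and the fit without OA_9570 and ORC_202 15 and 2.

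Annexins, which bind membranes in response to calcium, and the calcium-binding S100 proteins were higher in 10 of 18 genes and lower in 1 (median 1.07). ANXA1, a mediator of the resolution of inflammation (chromosome 23, 15712916 to 15730527), read 36067, 56980, 33062, 35974 and 46110 against 8768 to 30418 with a median of 23435 (log2 change 0.99, SE 0.24, adjusted p = 0.0079), without overlap. ANXA5 read 21126, 32231, 28842, 25716 and 35187 against 2592 to 23398 with a median of 11748 (log2 change 1.43, adjusted p = 0.00895), with OA_1038 within the healthy range. ANXA6 went the other way, at 14661, 7075, 8097, 6539.9 and 12676 against 9342 to 25841 with a median of 20803 (log2 change -1.02, adjusted p = 0.00765), with OA_1038 and OA_9570 inside the healthy range. ANXA7 rose by 0.77. Genes higher numbered 5 without OA_1038. Leaving out OA_9570 and ORC_202 gave 11 higher and 1 lower, equal library totals 8 and 1, and the fibroblast covariate 1 and 0.

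Genes of cilium assembly were higher in 13 of 49 cases and lower in 2 (median 0.50). IFT22, a subunit of the intraflagellar transport train (chromosome 13, 9545446 to 9551250), read 2018, 722, 758, 554 and 496 against 119.7 to 377 with a median of 256 (log2 change 1.70, SE 0.31, adjusted p = 0.00158), without overlap. The transport gene IFT122 (1.59), the ciliary GTPase ARL3 (1.32) and INVS (1.11) rose as well. The genes lower were CEP120 (-0.61), a centriole gene, and MKS1 (-0.60), whose call was lost without OA_2615 (adjusted p = 0.0748). The higher count was 4 without OA_2615, 6 without OA_1038 and 8 without OA_3850. The counts were 18 higher and 2 lower without OA_9570 and ORC_202, 7 and 3 at equal library totals, and 1 and 1 with the fibroblast covariate.

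Many zinc finger genes fell. Of 270 genes with a ZNF symbol, 92 were lower, against 13.6% of all genes, and 12 higher (median -0.42). The ZBTB family, zinc fingers with a BTB domain, had 13 of 40 lower and 1 higher (median -0.52). ZNF507 (chromosome 10, 3802059 to 3849026) read 393, 146, 286, 159 and 175 against 425 to 1292 with a median of 849 (log2 change -1.94, SE 0.28, adjusted p = 0.000565), without overlap, and ZNF688 449.7, 285, 346, 168 and 665 against 775 to 2096 with a median of 1118 (log2 change -1.80, adjusted p = 0.000752). ZNF462 above was among the 12 ZNF genes that rose, and GLIS3, outside these symbol families, rose too. No single library moved the lower count of ZNF or ZBTB genes by more than 1.5 times, but the ZNF higher count was 5 without OA_2615 and 6 without OA_1038 or OA_3850. With the fibroblast covariate the ZNF family had 3 higher and 37 lower, at equal library totals 7 higher and 116 lower, and without OA_9570 and ORC_202 19 higher and 93 lower, against 4 higher and 16 lower for ZBTB. The fibroblast covariate left 0 ZBTB genes higher and 9 lower.

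The other families with large shares lower were the kinases named STK (8 of 20 lower, 2 higher), the F-box genes FBXO (10 of 29, 1), the KLHL ubiquitin ligase adaptors (7 of 26, 2), the RNA-binding RBM genes (8 of 30, 0) and the leukocyte antigens named CD (23 of 75, 10). STK4, the kinase MST1 of the Hippo pathway (chromosome 22, 35018436 to 35102631), read 3294, 2755, 3542, 2464 and 3594 against 4865 to 7704 with a median of 6073 (log2 change -0.96, SE 0.14, adjusted p = 0.000565), without overlap. KLHL28 (-1.25), RBM43 (-1.65), RBM38 (-1.26) and FBXO45 (-1.18) had the smallest p among the lower genes of their families. The lower counts were 5 without OA_2615 or OA_9350 for STK, 5 without OA_9350 and 6 without OA_2615 or OA_3850 for FBXO and 4 without OA_2615 or OA_3850 and 5 without OA_9350 for RBM. The number of CD genes higher was 2 without OA_2615 or OA_3850 and 4 without OA_9350. In the same order, the families without OA_9570 and ORC_202 had 2 higher and 9 lower, 1 higher and 11 lower, 2 higher and 8 lower, 0 higher and 10 lower and 14 higher and 27 lower. With the fibroblast covariate they had 1 higher and 4 lower, 0 and 3, 0 and 5, 0 and 3 and 0 and 14.

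**Figure D5:**
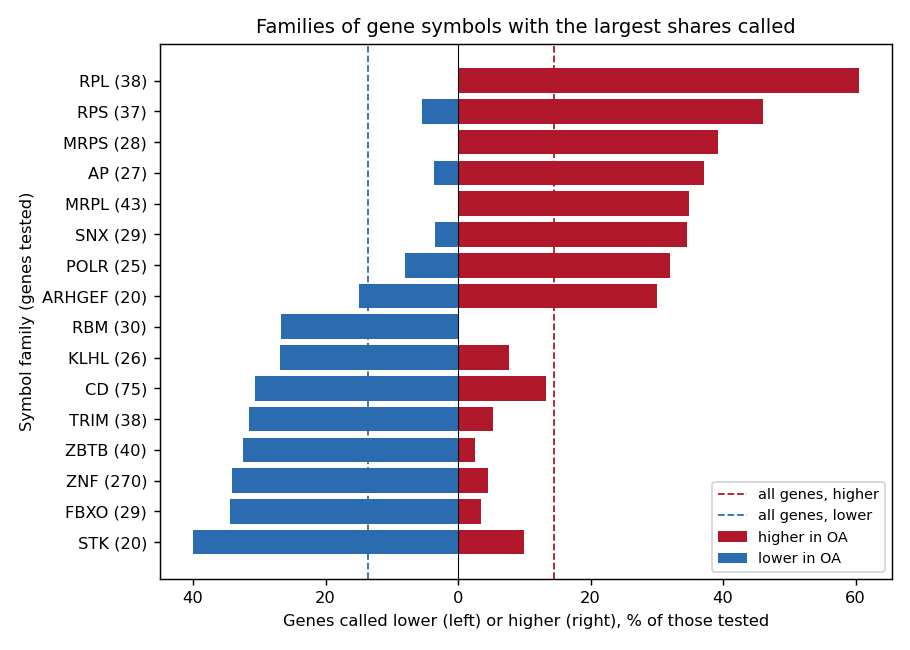
Share of the tested genes of a symbol family called lower (blue, to the left) or higher (red, to the right) in OA, with the number tested in brackets and the share over all genes as dashed lines (14.4% higher, 13.6% lower). The RPL and RPS families lead the rises (23 of 38 and 17 of 37 genes), and STK, FBXO, ZNF and ZBTB the falls. RPS mixes ribosomal proteins with kinases such as RPS6KA2. The higher counts of RPL and RPS were 10 and 5 without OA_1038, 11 and 6 without OA_9350 and 27 and 22 without OA_9570. They were 14 and 10 at equal library totals and 1 and 0 with the fibroblast covariate.

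Chromatin regulators were lower in 18 of 72 genes and higher in 3 (median -0.27). KDM2B, a histone demethylase (chromosome 8, 24397969 to 24514691), read 2661, 1656, 2859, 1781 and 2495 against 3471 to 5000.2 with a median of 3934 (log2 change -0.85, SE 0.15, adjusted p = 0.0014), without overlap. The deacetylase HDAC7 (-1.26), the demethylase KDM4A (-0.65) and the methyltransferases KMT2A (-0.97) and SETD2 (-0.64) were lower. The 3 genes higher were the deacetylases HDAC2 (0.82) and HDAC3 (0.52) and the remodelling subunit SMARCB1 (0.43). HDAC3 lost its call without OA_1038, OA_2615 or OA_9570 (adjusted p up to 0.0882), and SMARCB1 without each library in turn other than ORC_197, ORC_198, ORC_202 and ORC_208 (adjusted p up to 0.0901) and with edgeR (adjusted p = 0.0947). The lower count was 8 without OA_2615 and 11 without OA_3850, and the higher count 1 without OA_1038 or OA_9570. Without OA_9570 and ORC_202 these became 3 higher and 26 lower, at equal library totals 1 and 30, and with the fibroblast covariate 1 and 3.

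DNA repair genes were lower in 16 of 71 cases and higher in 2 (median -0.11). LIG4, the ligase of double-strand break end joining (chromosome 17, 75850964 to 75853728), read 267, 55.3, 133, 125 and 131 against 274 to 1333 with a median of 874 (log2 change -2.54, SE 0.37, adjusted p = 0.000565), and OA_1038 lay just under the healthy minimum. MBD4, a glycosylase that removes mismatched thymine (chromosome 16, 5920544 to 5929177), read 425, 399.6, 471, 357 and 466 against 593 to 1144 with a median of 831 (log2 change -1.01, adjusted p = 0.00147), without overlap. The glycosylase NEIL1 (-1.41) and the Fanconi anaemia gene FANCG (-0.87) fell, and the base excision genes NTHL1 (1.11) and APEX1 (0.76) rose, APEX1 not without OA_9350 (adjusted p = 0.0575). The lower count was 9 without OA_2615. At equal library totals 1 were higher and 26 lower, with the fibroblast covariate 1 and 5, and without OA_9570 and ORC_202 3 and 15.

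Ubiquitin conjugating and deubiquitinating enzymes were lower in 16 of 73 genes and higher in 6 (median -0.15). USP18, which removes the ubiquitin-like ISG15 and is induced by interferon, read 76.4, 128, 57.2, 40.8 and 59.7 against 200.9 to 697 with a median of 285 (log2 change -2.17, adjusted p = 0.000565), and USP20 1232, 587, 938, 1134 and 1583 against 1782 to 3394 with a median of 2547 (log2 change -1.27, adjusted p = 0.000961), both without overlap. USP38 fell by 0.95 on the log2 scale, while UBE2F, a conjugating enzyme of NEDD8, rose by 0.86. The lower count was 8 without OA_9350, 9 without OA_2615 and 10 without OA_3850, the higher count 2 without OA_1038, OA_2615 or OA_9350 and 3 without OA_3850. With both OA_9570 and ORC_202 left out 8 were higher and 19 lower, with equal library totals 1 and 24, and under the fibroblast covariate 0 and 8.

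TRIM proteins, ubiquitin ligases many of which act in antiviral defence, were lower in 12 of 37 genes and higher in 2 (median -0.37). TRIM22, induced by interferon (chromosome 7, 76860643 to 76871890), read 719, 264, 471, 566 and 997 against 1177 to 6244 with a median of 2664 (log2 change -2.38, SE 0.37, adjusted p = 0.000752). TRIM25, which activates the RNA sensor RIG-I (chromosome 11, 31606724 to 31667139), read 775, 455, 414, 319 and 1038.1 against 1053 to 3001 with a median of 1853 (log2 change -1.77, SE 0.27, adjusted p = 0.000575). Neither overlapped between the groups, and OA_9570 was the highest OA fluid for both. TRIM34 (-1.66), TRIM13 (-1.40), TRIM7 (-1.37) and TRIM26 (-1.04) fell, and TRIM44 (1.15) and TRIM35 (0.61) rose, TRIM35 not without OA_3850 or OA_9350 (adjusted p up to 0.078). The fibroblast covariate left 0 higher and 9 lower, equal library totals 1 and 15, and the fit without OA_9570 and ORC_202 2 and 13. STING1, the adaptor of the cytosolic DNA sensor, read 1342, 1159.7, 1395, 1554 and 2379.5 against 2349 to 7258 with a median of 3946 (log2 change -1.37, adjusted p = 0.00137), and the endosomal RNA sensor TLR8 moved the opposite way, 1348, 5574, 5186, 4943 and 3317 against 759 to 3141 with a median of 1224 (log2 change 1.48, adjusted p = 0.00457). OA_9570 lay just inside the healthy range of STING1, and OA_1038 inside that of TLR8. TREM1, an amplifier of myeloid activation, rose by 2.21, with OA_1038, OA_2615 and OA_9350 inside the healthy range of 392 to 8112. STING1, TLR8 and TREM1 belong to a list of pattern recognition genes with 2 of 28 higher and 3 lower. Those shares, 7.14% and 10.7%, were below the 14.4% and 13.6% of all genes.

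Cytokine receptors of lymphocytes signal through Janus kinases and STAT factors, and several of these genes fell. Of 28 genes, 10 were lower and 3 higher (median -0.35). STAT4, which relays interleukin-12, read 1478, 328, 753, 609 and 837 against 1173 to 4519.8 with a median of 2356 (log2 change -1.70, adjusted p = 0.00157), with OA_1038 within the healthy range. JAK3, the kinase of the common gamma chain, read 6983, 2126, 8180.3, 8947 and 10870 against 10207 to 32281 with a median of 18977 (log2 change -1.52, adjusted p = 0.00316), and STAT5B 3471, 1905, 2606, 2323 and 4514 against 4117 to 9026 with a median of 5762 (log2 change -1.06, adjusted p = 0.00229). OA_9570 lay within the healthy range for both, and the other OA fluids below it. The kinases PIM2 (-2.40) and PIM1 (-1.50) and the feedback inhibitor CISH (-1.85) were lower, while STAT3 (0.57), its inhibitor SOCS3 (1.37) and the phosphatase PTPN1 (0.71) were higher. Of these, STAT3 lost its call without OA_3850 or OA_9350 (adjusted p up to 0.0646), SOCS3 without OA_2615, OA_3850 or OA_9350 (adjusted p up to 0.0657) and with edgeR (adjusted p = 0.0643), and PTPN1 without OA_3850 or OA_9350 (adjusted p up to 0.0983). The number higher became 0 without OA_3850 and 1 without OA_9350. Leaving out OA_9570 and ORC_202 gave 3 higher and 11 lower, equal library totals 1 and 15, and the fibroblast covariate 1 and 6. The T cell list mean was also lower in OA. Whether the genes lower here follow it from library to library was not tested.

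Of 40 interleukin receptors, 8 were lower and 3 higher, against 13.6% and 14.4% of all genes, with a median of 0.06 that changed sign at equal library totals. IL27RA, IL12RB1 and IL2RB changed by -1.62, -1.40 and -1.99 (adjusted p = 0.00149, 0.00216 and 0.00325), opposite to IL1R1 above. The lower count was 4 without OA_2615, the higher count 1 without OA_3850 or OA_9350. The counts were 6 higher and 9 lower without OA_9570 and ORC_202, 3 and 10 at equal library totals, and 2 and 4 with the fibroblast covariate.

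The TNF receptor superfamily and its ligands had 11 of 35 genes lower and 3 higher (median -1.05). CD27, a costimulatory receptor of lymphocytes, read 1738, 464, 809, 719.9 and 1013 against 1776 to 9018 with a median of 4126 (log2 change -2.18, adjusted p = 0.000752), and CD40LG, the ligand by which T cells help B cells, 798, 258, 276, 543 and 478 against 831 to 3252 with a median of 1472 (log2 change -1.77, adjusted p = 0.00083), with OA_1038 just under the healthy minimum for both. FASLG (-2.67), TNFSF14 (-2.19) and TNFSF10 (-1.39), death and costimulatory ligands, fell too. The 3 genes higher were the lymphotoxin receptor LTBR (1.19), the TWEAK receptor TNFRSF12A (1.60) and the ligand TNFSF18 (2.83). The call of LTBR was lost without OA_2615, OA_3850, OA_9350, OA_9570, ORC_192, ORC_200, ORC_201 or ORC_209 (adjusted p up to 0.0834) and with edgeR (adjusted p = 0.0589). That of TNFRSF12A was lost without OA_1038, OA_2615, OA_3850 or OA_9570 (adjusted p up to 0.0954), and that of TNFSF18 without OA_3850 or OA_9350 (adjusted p up to 0.0864). TNFRSF11A, the receptor RANK of osteoclast precursors, read 1334, 2647, 5436, 7509 and 7446 against 143 to 7035 with a median of 1195 in the separate list of osteoclast genes (1.91, adjusted p = 0.0457), and lost its call without each library in turn other than OA_1038, ORC_188, ORC_196, ORC_200, ORC_202 and ORC_208 (adjusted p up to 0.111) and with edgeR. The higher count of the TNF list was 0 without OA_3850 and 1 without OA_2615, OA_9350 or OA_9570. Without OA_9570 and ORC_202 these became 3 higher and 12 lower, at equal library totals 1 and 12, and with the fibroblast covariate 0 and 6.

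Phosphoinositide and diacylglycerol enzymes carry signals from antigen and growth factor receptors. Of 52 genes, 16 were lower and 6 higher (median -0.12). Directions divided within families. Among diacylglycerol kinases, DGKG (chromosome 19, 26663678 to 26830531) read 1459.9, 1037.8, 929.8, 556 and 552 against 83.7 to 481 with a median of 169 (log2 change 2.26, SE 0.35, adjusted p = 0.000752), while DGKE read 718, 589, 768, 868 and 814 against 993 to 3209 with a median of 1999.8 (log2 change -1.39, adjusted p = 0.00116), neither with overlap. DGKA (-1.54), DGKQ (-1.59) and DGKZ (-1.10) fell as DGKE did. Among phospholipases C, PLCG1 of T cell receptor signalling fell (-1.85), as did PLCL1 (-1.44), and PLCB3 (1.62) rose. Among the catalytic subunits of phosphoinositide 3-kinase, PIK3CD (-1.04), used mainly by leukocytes, was lower and the widely used PIK3CB (1.10) higher. At equal library totals 6 were higher and 21 lower, with the fibroblast covariate 2 and 9, and without OA_9570 and ORC_202 8 and 18.

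All 3 GIMAP GTPases tested, which support lymphocyte survival, were lower: GIMAP8 (-1.28), GIMAP7 (-1.07) and GIMAP6 (-0.70). GIMAP7 lost its call without OA_2615, OA_3850 or OA_9350 (adjusted p up to 0.068), and GIMAP6 without OA_3850 (adjusted p = 0.053). With both OA_9570 and ORC_202 left out 0 were higher and 3 lower, with equal library totals 0 and 3, and under the fibroblast covariate 0 and 0.

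Ion channels were lower in 8 of 36 potassium and calcium channel genes and higher in 3, although the median of the list was 0.46. KCNA3, the voltage-gated potassium channel of T cells (chromosome 5, 54177901 to 54179928), read 1280, 191, 601, 615 and 591 against 1274 to 4843 with a median of 3379 (log2 change -2.47, SE 0.37, adjusted p = 0.00067), with OA_1038 the only OA fluid inside the healthy range. KCNK5 (-2.81), KCNQ5 (-2.16) and the calcium release channel ITPR3 (-1.28) were lower as well. Genes higher numbered 5 without ORC_202 or ORC_205. The fibroblast covariate left 3 higher and 4 lower, equal library totals 3 and 10, and the fit without OA_9570 and ORC_202 5 and 9.

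Of 33 genes of the BCL2 family and caspases, 6 were higher and 7 lower, against 14.4% and 13.6% of all genes, with a median of 0.03. However, 2 of the 33 entered the test through OA alone, which required a higher OA mean. Among the other 31, 4 were higher and 7 lower. CASP8, the initiator caspase of death receptors (chromosome 18, 76420061 to 76477303), read 1034, 672, 999.6, 968 and 1289.6 against 1592 to 3655 with a median of 2429 (log2 change -1.27, SE 0.18, adjusted p = 0.000565), without overlap. The BH3-only gene PMAIP1 (-1.40) and the inhibitor BIRC3 (-1.10) fell. Over all 33 genes, the higher count was 2 without OA_3850, 3 without OA_2615 and 10 without ORC_202. Leaving out OA_9570 and ORC_202 gave 6 higher and 8 lower, equal library totals 2 and 8, and the fibroblast covariate 2 and 4. In the list of senescence and p53 targets 3 of 32 were higher and 6 lower (median -0.05), shares also not far from those of all genes. CDKN1B, the cell cycle inhibitor p27, read 1348, 1064, 1155, 1189 and 2195 against 2592 to 5786 with a median of 4162 (log2 change -1.46, adjusted p = 0.000565), without overlap, and the p53 target TP53INP1 changed by -1.08. The higher count of that list was 6 without ORC_202. The counts were 7 higher and 6 lower without OA_9570 and ORC_202, 3 and 8 at equal library totals, and 0 and 4 with the fibroblast covariate.

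Further genes of lipid, nucleotide, hormone and signalling lists passed the test. PLA2G7, which breaks down platelet-activating factor (chromosome 20, 46158639 to 46175571), read 904, 885, 940.3, 1683 and 208.4 against 29.4 to 311 with a median of 55.8 (log2 change 3.38, SE 0.50, adjusted p = 0.000565), with OA_9570 the only OA fluid inside the healthy range. HSD17B4, an enzyme of peroxisomal fatty acid oxidation (chromosome 14, 53031920 to 53201933), read 6312, 3992, 3989, 3828 and 3608 against 963 to 2767 with a median of 1879.5 (log2 change 1.33, SE 0.23, adjusted p = 0.00123), without overlap. ADORA2B, the low-affinity adenosine receptor, read 573, 2375, 1704, 871 and 1055 against 139 to 718 with a median of 413 (log2 change 1.55, adjusted p = 0.00508), and the cyclic AMP phosphodiesterase PDE7A 1242, 332, 1049, 1474 and 1248 against 1834 to 5744 with a median of 3225 (log2 change -1.75, adjusted p = 0.00152). ADORA2B thus rose, with OA_1038 inside the healthy range, and PDE7A fell, with no overlap. The list of retinoid, vitamin D and steroid genes had 6 of 27 higher (22.2%, against 14.4% of all genes) and 0 lower (1 at an unadjusted p below 0.05), with a median of 0.71. The higher count was 10 without OA_9570. Without OA_9570 and ORC_202 these became 10 higher and 1 lower, at equal library totals 5 and 1, and with the fibroblast covariate 2 and 0. RARG, a retinoic acid receptor, rose by 1.42 and ALDH1A3, which makes retinoic acid, by 3.57. SLC39A14, a zinc and iron importer, read 2051, 4913, 2886, 2817 and 609 against 375 to 1062 with a median of 671 (log2 change 1.68, adjusted p = 0.00344), with OA_9570 below the healthy median. WNT2B, a Wnt ligand, read 134, 0, 67.8, 27.2 and 35.2 against 147 to 406 with a median of 238 (log2 change -3.24, adjusted p = 0.00577), with every OA value below every healthy one and 0 in OA_2615. PLXNB1, a semaphorin receptor, fell by 1.74 on the log2 scale, and the ligands EFNB1 (1.29) and SEMA3F (4.40) rose. CLEC4F, a lectin that entered the test through healthy fluid alone, was at 0 in every OA fluid and read 0 to 175 with a median of 15.4 in healthy fluids, so no fold is given.

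The neutral amino acid importers SLC38A1 and SLC38A2 fell, in a list of amino acid transporters with 5 of 25 higher and 3 lower, against 14.4% and 13.6% of all genes. SLC38A1 (chromosome 6, 65142265 to 65190839) read 802, 274, 555, 475 and 125 in OA and 475 to 2255 with a median of 1243 in healthy fluid (log2 change -1.65, SE 0.37, adjusted p = 0.00468), with OA_9570 lowest and OA_1038, OA_3850 and OA_9350 inside the healthy range. SLC38A2 changed by -0.81. Autophagy genes had 7 of 38 higher and 4 lower, close to those shares. ATG16L1, needed to attach LC3 to membranes, read 1917, 1512, 2087, 2288 and 2275 against 2249 to 5154 with a median of 3587 (log2 change -0.90, adjusted p = 0.0021), with OA_9350 and OA_9570 just inside the healthy range. The LC3 relatives MAP1LC3A (1.48) and GABARAP (0.77) and the lipid-binding WIPI1 (1.66) went the other way. The number of autophagy genes higher was 3 without OA_2615 and 4 without OA_1038, and the number lower 2 without OA_3850 or OA_9350. At equal library totals 4 were higher and 8 lower, with the fibroblast covariate 0 and 1, and without OA_9570 and ORC_202 8 and 6. The number of transporters higher was 0 without OA_9350, 1 without OA_3850, 2 without OA_2615 and 3 without ORC_192, ORC_200, ORC_201, ORC_208 or ORC_209. With both OA_9570 and ORC_202 left out 8 were higher and 2 lower, with equal library totals 2 and 3, and under the fibroblast covariate 1 and 1.

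Among scavenging genes OLR1, the lectin-like receptor for oxidized lipoprotein (chromosome 6, 38238677 to 38248199), read 255, 539, 388, 703 and 708 against 58.8 to 510.4 with a median of 139.9 (log2 change 1.74, adjusted p = 0.0106), with OA_1038 and OA_3850 inside the healthy range. LGALS3, a galectin abundant in macrophages, rose by 1.27. CLEC11A, a growth factor for bone-forming stromal cells, read 1028, 1878, 655, 310 and 162 against 21.8 to 386 with a median of 90.8 (log2 change 2.7, adjusted p = 0.00455), with OA_9350 and OA_9570 inside the healthy range. RAMP2, a subunit of the adrenomedullin receptor, rose by 1.76. Of 43 KLF, SOX and FOX factors 1 was higher and 7 lower (16.3%), the latter near the 13.6% of all genes. Of the 43, 3 entered the test through OA alone and 1 through healthy fluid alone. Among the other 39, 1 was higher and 6 lower. The higher count was 2 without OA_9350 or ORC_196, 3 without ORC_205 and 6 without OA_9570. The fibroblast covariate left 0 higher and 4 lower, equal library totals 1 and 11, and the fit without OA_9570 and ORC_202 6 and 10. Among the lower ones were KLF6 (chromosome 29, 31363297 to 31369915) at 10079, 15227, 9547, 8152 and 12547 against 15899 to 33020 with a median of 20052 (log2 change -0.92, SE 0.19, adjusted p = 0.00316), without overlap, and FOXN2 at -0.77. RORA, a nuclear receptor of the clock that acts upstream of ARNTL, changed by -1.68, and the feedback inhibitor of the EGF receptor ERRFI1 by 3.01. Of 49 splicing factors 2 were higher and 7 lower, the latter near the share of all genes, and the lower count was 1 without OA_2615, 3 without OA_9350 and 4 without OA_3850. Leaving out OA_9570 and ORC_202 gave 2 higher and 12 lower, equal library totals 0 and 18, and the fibroblast covariate 0 and 0. The kinase CLK1, which acts on splicing factors, fell by 0.87 on the log2 scale.

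Some genes were measured tightly enough to bound a difference. The 95% interval of the log2 change lay within -0.5 to 0.5 for 831 genes (5.99%). The 10 narrowest among genes with a mean of at least 1000 were NPLOC4, BUB3, MCRS1, SENP3, SMU1, REPS1, RAB3GAP1, C13H16orf72, SRP68 and FIP1L1. NPLOC4, a cofactor of the segregase VCP, read 2300.2, 2259, 2337, 2145 and 2156 in OA and 1858 to 2510.3 with a median of 2190.4 in healthy fluid (log2 change 0.02, interval -0.22 to 0.25). BUB3, a mitotic checkpoint gene, read 2635, 2337, 2439.8, 2778 and 2334 against 1873 to 2486 with a median of 2227 (log2 change 0.18, interval -0.06 to 0.42). The splicing gene SMU1 had an interval of -0.28 to 0.21, and SRP68, a subunit of the signal recognition particle, of -0.20 to 0.31.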

How the data were processed

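RNA-seq of cells from 5 OA and 11 healthy joint fluids was analysed; blood libraries were not analysed here. The submitters' processing notes name cutadapt, STAR 2.7.3, HTSeq, DESeq, Partek and the build EquCab3.0. The deposited values are a signal, gene counts that the authors normalized by median-ratio size factors, per the file headers; the sources used here do not state strand or annotation, so overlapping genes and near copies may share reads. Whole reads were recovered for 99.87 to 99.98% of values (tolerance 0.1 read).

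Genes with a mean of at least 10 over the 16 libraries were tested on log2(value + 1) with limma 3.58.1 (trend and robust variance, R 4.3.3), and Benjamini-Hochberg adjustment over 13885 genes. That scale understates changes of low genes. edgeR 4.0.16 and DESeq2 1.42.0 on recovered reads, another pseudocount, filter, scaling or covariate, and leaving libraries out were alternatives. The fit was also run on simulated counts with few changed genes, equally up and down, and spreads taken from healthy libraries. That run cannot show how the fit behaves with as many differences as here. P-values measure the spread between horses.

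Members, lists and rules were chosen with earlier results of these data known. Genes named are the 15 with the widest gap in each direction, up to 4 called genes of smallest p per list, those of smallest p in symbol families, and 10 with the narrowest interval. 48 further list members were chosen after their values were seen. Coordinates come from a second table of the series that pairs symbols with Ensembl genes. A few items are not reported here.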

Additional observations from a re-analysis of the deposited data

Results flagged for a closer look

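Among 90 OA values examined (60 list means and 30 genes with the widest gap), 12 had 1 of the 5 OA libraries apart from the other 4. Apart means that its gap to the nearest OA library exceeded 0.71 of their range on the log2 scale, however narrow that range. The 30 genes were chosen by these same values and lists may move together, so no chance rate applies to the count. OA_9570 was low for the mean log2 level of 3 lists and for a gene. Its fibroblast marker mean was 5.16 against 10.5 to 12.3 in the other OA fluids, its mean of MAP kinase feedback genes 9.12 against 9.81 to 10.1, and its mean of semaphorins, plexins and ephrins 6.69 against 7.67 to 8.03. GLIS3, a zinc finger transcription factor, read 159.5 normalized reads there against 388 to 441.

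OA_2615, which had the lowest T cell list mean, was low for 4 genes that fell. ARNTL read 317 normalized reads against 872 to 1233, SLAMF1 31.4 against 122 to 156, LAX1 7.54 against 108 to 154 and SUV39H1 173 against 278 to 330.2.

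The other flagged values were high in 1 OA library. THBD read 8729 normalized reads in OA_3850 against 558 to 785, and NQO2 read 1113 there against 951 to 987. PAPSS1 read 7624 in OA_1038 against 3681 to 4158, and ZNF462 549.5 in OA_9350 against 239.7 to 296.5.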

How the results depend on the processing

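No paired analysis was possible because the OA and healthy fluids come from different horses and share no number. Among all genes, 1312 were higher at equal library totals, 3654 with estimated weights per library, 530 with the fibroblast list mean as covariate and 0 with the T cell list mean as covariate, against 2006. The genes lower were 2764, 2981, 759 and 0 in the same order, against 1893. With 1 library left out, the higher count ran from 1209 to 2569 and the lower count from 1296 to 2166. The other alternatives (pseudocount, filter on low values, TMM factors, limma without trend and robust variance, edgeR, DESeq2, and 2 pairs of libraries left out) gave 1710 to 2791 higher and 1794 to 2328 lower. Of 234 called genes named by rule, 212 kept their call whichever single library was left out, 232 with edgeR, 228 at equal totals, 155 with the fibroblast covariate and 0 with the T cell covariate. The rules took the smallest p or the widest gap in these same libraries, which favours keeping a call. Of 41 further called genes named, 25 kept their call in every fit with 1 library left out, 36 with edgeR and 31 at equal totals. Only 10 of these 41 kept it with the fibroblast covariate. The T cell covariate turned the sign of 20 of these genes, none of them called there: SLC38A7 -0.15, JDP2 -0.11, ATF3 -0.69, SRSF10 0.098, GIMAP8 0.24, TUBA4A 0.094, KIF1B -0.59, ANXA6 0.082, CD36 -0.057, LRP1 -0.12, IL2RB 0.46, TCF7 0.18, FAS 0.082, RAB37 0.17, CISH 0.58, LTBR -0.017, PIK3CB -0.064, PLCL1 0.055, SOCS3 -0.50 and VLDLR -0.12. The cause of these differences was not tested. With 5 OA horses the median 95% interval of a log2 change was 1.25 wide, so moderate differences in single genes were often not detectable.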
